A study of Mus musculus with 96 samples.

Results

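F3, Akap2, Serpinb9, Slc20a1, Bcar1, Rnf114 and Lims1 are 7 genes that stood out in control C2C12 myoblasts because their RNA was highest with the complex III inhibitor antimycin. Among the inhibitors it was lowest with the ATP synthase inhibitor oligomycin for 6 of them, and about equal with oligomycin and the complex I inhibitor piericidin for Lims1. They are 7 of the 54150 genes and transgenes counted in this RNA-seq series. They were chosen by their fold changes against DMSO in luciferase control myoblasts, so their values there are given as a description without a test. The other samples tell whether the order of the inhibitors was kept in lines that express an NADH oxidase or a second NADH dehydrogenase, and in cells that had left the cell cycle.

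C2C12 is a mouse myoblast line that proliferates in rich serum and fuses into myotubes in low serum. Proliferating myoblasts carried doxycycline-inducible luciferase (the control), LbNOX, mitoLbNOX or NDI1 in stable lines made with lentivirus, and all of them, the DMSO controls included, received 300 ng/ml doxycycline from 24 h before treatment. LbNOX is a bacterial enzyme that oxidizes NADH to NAD+ in the cytosol, mitoLbNOX is the same enzyme sent to the mitochondrial matrix, and NDI1 is a yeast enzyme that stands in for complex I and is not blocked by piericidin. Untransduced cells were treated either 24 h after the change to low serum, when they are largely post-mitotic, or after 4 days as myotubes, and further myotubes carried GFP alone or LbNOX from adenovirus. Treatment lasted 10 h with DMSO, piericidin (complex I, 0.5 µM), antimycin (complex III, 0.5 µM), oligomycin (ATP synthase, 1 µM) or, in untransduced myotubes only, the uncoupler BAM15 (0.5 µM), oligomycin together with piericidin or BAM15, or 5% oxygen, begun the night before, with DMSO or oligomycin. Luciferase and LbNOX myoblasts were also kept for 48 h with DMSO or chloramphenicol (20 µg/ml), which blocks mitochondrial translation. Per the study, uridine was present in the chloramphenicol experiment, whereas the medium of the 10 h treatments lacked it. Each of the 35 groups held 2 or 3 libraries, and nothing states that replicates were separate cultures. The p-values therefore measure the spread between these libraries, which may be technical. mitoLbNOX myoblasts were not given oligomycin, NDI1 myoblasts were given piericidin only, and cells at 24 h were not given antimycin. The full order of inhibitors can thus be read in luciferase and LbNOX myoblasts and in untransduced myotubes.

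Inhibition of the respiratory chain or of ATP synthase activates the integrated stress response in many cells, in which phosphorylation of eIF2α slows translation and raises the transcription factor ATF4. Its targets include enzymes of amino acid synthesis. Per the study, a large share of the targets of this response rose in control myoblasts in the order antimycin, piericidin, oligomycin. Whether the 7 genes are among its targets was not tested here. F3 encodes tissue factor, the receptor for factor VIIa that starts blood coagulation. Akap2 encodes an anchoring protein that holds protein kinase A near its substrates. Serpinb9 encodes an intracellular inhibitor of granzyme B. Slc20a1 encodes the sodium-dependent phosphate transporter PiT-1. Bcar1 encodes p130Cas, a scaffold of focal adhesions that is phosphorylated when cells spread. Lims1 encodes PINCH1, which binds integrin-linked kinase at the same adhesions. Rnf114 encodes a RING-type E3 ubiquitin ligase.

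In the GENCODE annotation of GRCm38 all 7 are protein-coding genes. F3 lies at chr3:121723537-121735048, plus strand, Akap2 at chr4:57717657-57896984, plus strand, and Serpinb9 at chr13:33003250-33017957, plus strand. Slc20a1 lies at chr2:129198764-129211616, plus strand, and Rnf114 on the same chromosome at chr2:167492645-167516173, plus strand. Bcar1 lies at chr8:111710474-111743809, minus strand, and Lims1 at chr10:58323466-58424691, plus strand. Akap2 lies inside Pakap (chr4:57568179-57896982, plus strand) nearly to its end, so the counting may have split reads between them. Serpinb9 has close paralogs in the mouse genome, and its count carries the same reservation. RefSeq starts gave 16 windows on GRCm38.p6, of which 5 are those of Pakap, the RefSeq name matched to Akap2. The nearest of these 5 starts is 127591 bases from the Akap2 start given above, so the bases before that start were not searched. The 250 bases before each start were searched on both strands for TGATGNAA (the ATF4 and CEBP composite site), TGACGTCA (the cAMP response element) and TGANTCA (AP-1). Among the windows searched, TGANTCA was found only before F3, at 146 and at 135 bases before the start, and the pair of matches did not overlap. The other 2 motifs were found in none of the 16 windows. Of all 32851 windows, 6.75% held TGANTCA, 3.45% TGATGNAA and 1.55% TGACGTCA. Upstream bases of F3, which changed the most, are shown with the matches in capitals, beside those of Slc20a1 and Rnf114, in which none of the 3 motifs was found. They are written on the plus strand, that of each gene.
F3 chr3:121723287-121723536: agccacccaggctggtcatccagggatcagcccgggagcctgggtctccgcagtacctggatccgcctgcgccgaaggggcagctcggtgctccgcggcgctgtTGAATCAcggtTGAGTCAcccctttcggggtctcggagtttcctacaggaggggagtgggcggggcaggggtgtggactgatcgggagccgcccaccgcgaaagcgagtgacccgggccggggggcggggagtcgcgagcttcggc
Slc20a1 chr2:129198523-129198772: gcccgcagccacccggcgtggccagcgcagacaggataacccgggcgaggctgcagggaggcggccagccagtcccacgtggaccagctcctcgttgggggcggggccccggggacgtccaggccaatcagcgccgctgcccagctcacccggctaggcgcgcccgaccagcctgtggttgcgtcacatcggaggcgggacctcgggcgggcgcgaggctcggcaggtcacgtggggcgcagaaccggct
Rnf114 chr2:167492395-167492644: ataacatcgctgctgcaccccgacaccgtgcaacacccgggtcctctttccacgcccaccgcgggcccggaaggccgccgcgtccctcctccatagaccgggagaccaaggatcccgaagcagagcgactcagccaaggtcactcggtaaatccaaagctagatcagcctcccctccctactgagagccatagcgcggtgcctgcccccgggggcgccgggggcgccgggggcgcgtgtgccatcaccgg

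The libraries held between 6458295 and 15366745 counts, and the median total was 10336588.5. In what follows a level is in CPM, the count scaled to library depth with TMM factors, and is given ± SD, and a log2 fold change is given ± SE. No sample held counts of a transgene that its line should lack. LbNOX and mitoLbNOX were counted as the same transgene, so this check cannot tell these lines apart. No 2 replicates were identical. The labelled states were visible in their markers. The muscle genes Myog and Myh3 averaged 0.426 ± 0.285 and 0.419 ± 0.139 CPM (SD, n = 3) in luciferase DMSO myoblasts, against 1446 ± 70.6 and 1812 ± 39.6 CPM at 24 h and 744 ± 40.6 and 1937 ± 119.9 CPM in myotubes. The proliferation gene Mki67 went from 109.5 ± 2.49 to 18.8 ± 3.22 and 12.8 ± 0.958 CPM. Over all 35 groups the mean of the leukocyte gene Ptprc was at most 0.662 CPM, of the keratin gene Krt5 0.137, of the adipocyte gene Adipoq 0.0694 and of the endothelial gene Pecam1 2.97. In bulk RNA, fewer cells expressing a gene and less RNA per cell cannot be told apart. All 7 genes passed the filter on low counts in every model.

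In luciferase myoblasts, F3 was measured at 13.8, 18.5 and 13.6 CPM with DMSO, 25.2, 26.9 and 19.8 with oligomycin, 35.6, 32.8 and 42.3 with piericidin and 224, 208 and 215 with antimycin. Its steps did not overlap, and the log2 fold change against DMSO was 3.85 ± 0.13 for antimycin beside 1.29 for piericidin and 0.65 for oligomycin. Slc20a1 stood at 116, 99.5 and 107 CPM with DMSO and at 502, 475 and 461 with antimycin. Serpinb9 was the member with the strongest piericidin value, 51.4, 53.02 and 50.3 CPM against 19.4, 18.7 and 19.3 with DMSO and 71.95, 74.3 and 70.5 with antimycin. Akap2 had most of its difference with antimycin alone. It was at 78.5, 76.7 and 90.9 CPM with piericidin and 234, 197 and 219 with antimycin, over 53.3, 50.5 and 53.7 with DMSO. The antimycin log2 fold changes were 1.55 for Bcar1, 1.20 for Rnf114 and 1.00 for Lims1. In this line all DMSO libraries lay in outer wells of the plate and all antimycin libraries in inner wells. Antimycin and well position therefore cannot be told apart in these libraries.

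Piericidin was above oligomycin for 6 of the 7 genes. Lims1 was the exception, with nearly equal log2 fold changes of 0.42 for piericidin and 0.42 for oligomycin. Oligomycin libraries overlapped the DMSO libraries for Akap2 and Rnf114. With antimycin 32.1% of the 11981 genes tested were called higher in these cells, and 30.9% with piericidin and 24.5% with oligomycin. The order antimycin, piericidin, oligomycin was held by the point estimates of 6 of the 7, which were chosen on these values, and by those of 22.5% of all genes.

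**Figure D1:**
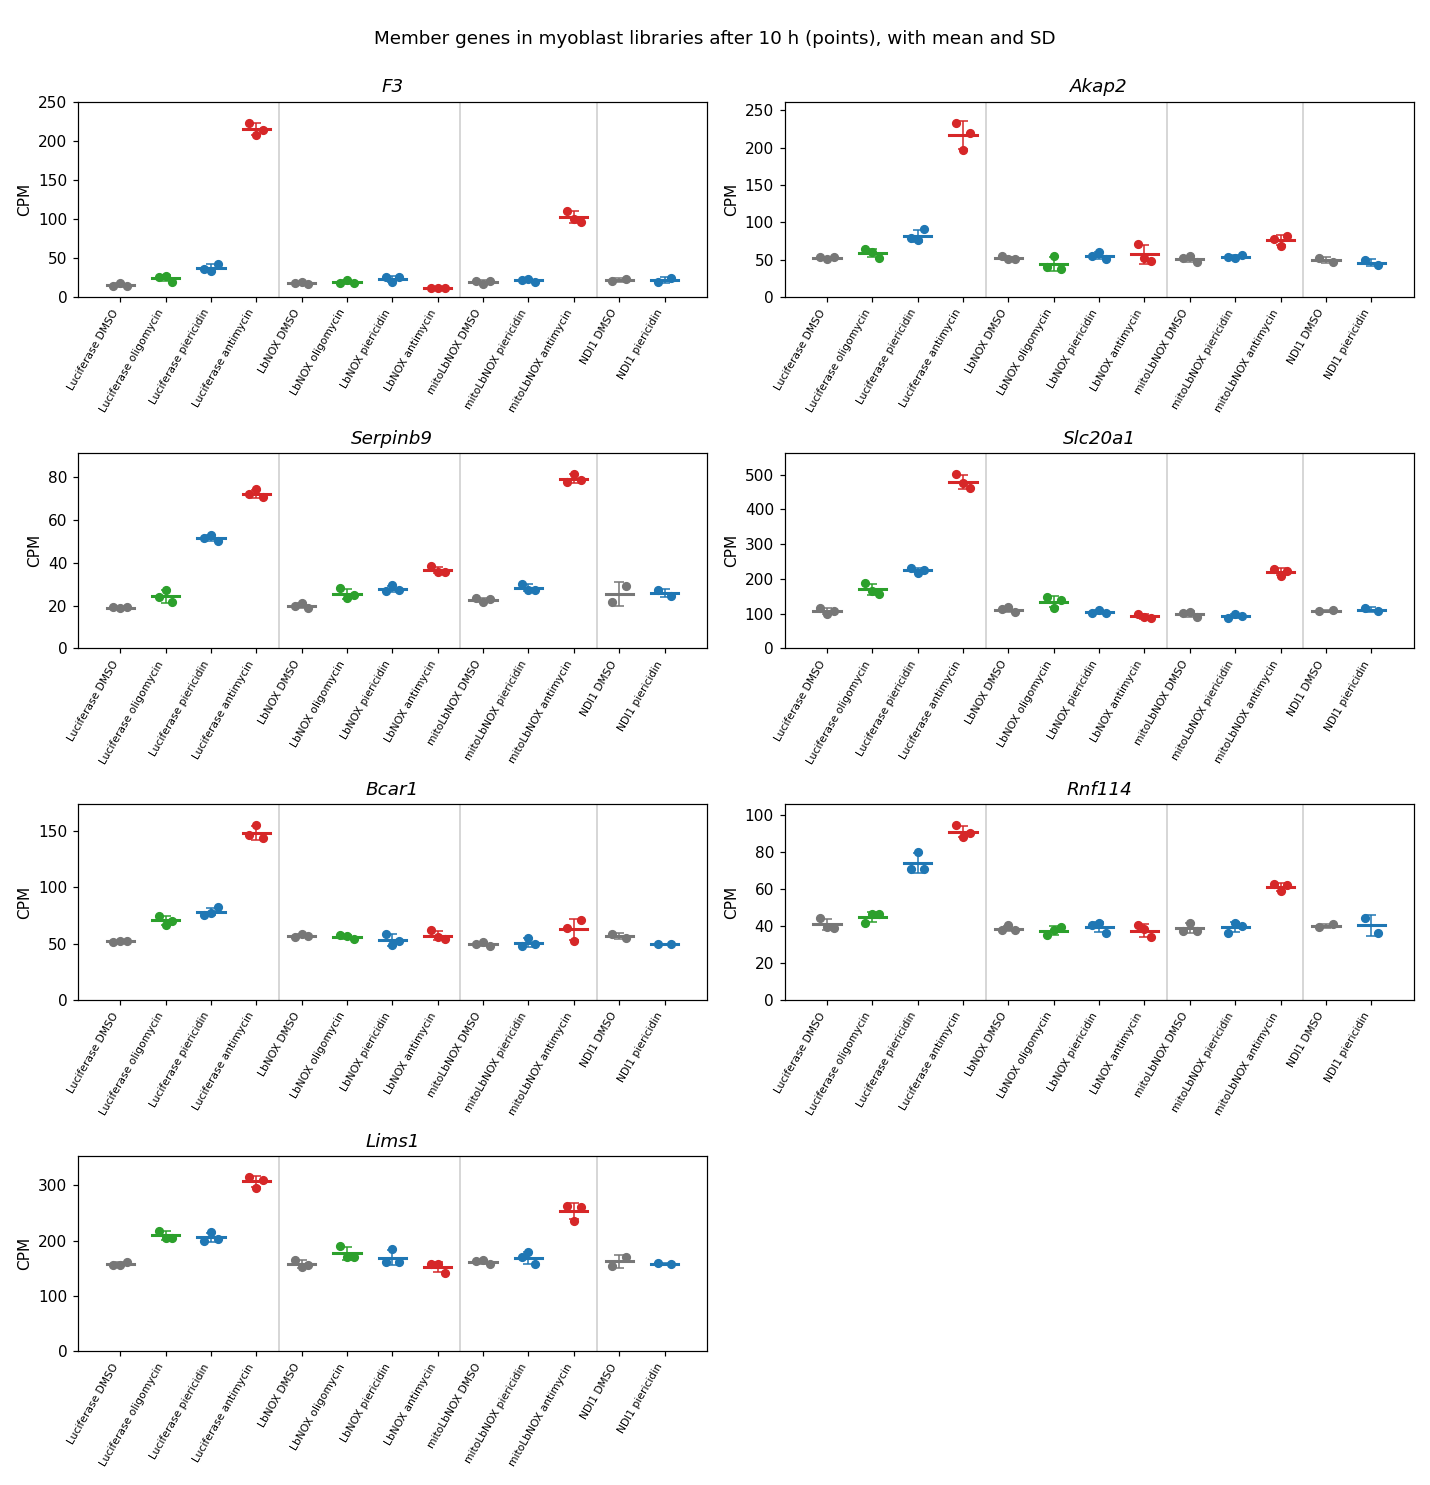
Level of each gene in myoblasts after 10 h, in CPM (TMM-scaled, linear axis from 0), one panel per gene; points are libraries, horizontal lines are means and bars are SD, and vertical lines part the luciferase, LbNOX, mitoLbNOX and NDI1 lines. The luciferase antimycin libraries are the highest in all panels but that of Serpinb9, where the mitoLbNOX antimycin libraries (77.7 to 81.4 CPM) lie above them.

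In LbNOX myoblasts antimycin gave the lowest value of the inhibitors for F3, Slc20a1 and Lims1. F3 stood at 18.3, 19.4 and 17.1 CPM with DMSO, 17.6, 21.6 and 18.2 with oligomycin, 25.1, 19.1 and 25.4 with piericidin and 10.9, 11.2 and 11.5 with antimycin. All antimycin libraries lay below every other of these libraries. F3 fell against DMSO (log2 fold change -0.67 ± 0.14, adjusted p = 0.000263), against piericidin (log2 fold change -1.04 ± 0.14, adjusted p = 5.57e-07) and against oligomycin (log2 fold change -0.76 ± 0.14, adjusted p = 6.66e-05). Slc20a1 was at 98.6, 89.8 and 87.4 CPM with antimycin and 114, 118 and 104 with DMSO and fell as well (log2 fold change -0.24 ± 0.07, adjusted p = 0.00476). It rose with oligomycin to 149, 117 and 139 CPM (log2 fold change 0.30 ± 0.07, adjusted p = 0.00107). For this phosphate transporter gene oligomycin was thus the highest of the inhibitors. Its log2 difference to oligomycin was -0.36 ± 0.07 (adjusted p = 0.000155) for piericidin and -0.54 ± 0.07 (adjusted p = 1.57e-07) for antimycin.

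Serpinb9, the granzyme B inhibitor, kept antimycin as the highest inhibitor under LbNOX. Its libraries gave 19.98, 21.4 and 18.8 CPM with DMSO, 28.2, 23.6 and 25.1 with oligomycin, 26.9, 29.5 and 27.1 with piericidin and 38.4, 35.8 and 35.6 with antimycin. The antimycin libraries overlapped none of the others. It rose with antimycin (log2 fold change 0.90 ± 0.08, adjusted p = 3.5e-10), piericidin (log2 fold change 0.49 ± 0.09, adjusted p = 0.00017) and oligomycin (log2 fold change 0.38 ± 0.09, adjusted p = 0.000761). With antimycin it was higher than with piericidin by 0.41 ± 0.08 (adjusted p = 0.000187). Piericidin and oligomycin did not differ past the threshold for it (log2 fold change 0.11 ± 0.09, adjusted p = 0.363).

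The other 4 members were not called with antimycin in LbNOX myoblasts. The log2 fold change of Akap2 was 0.18 ± 0.12 (adjusted p = 0.24), and those of Bcar1, Rnf114 and Lims1 were 0.04, -0.01 and -0.01. Lims1 rose with oligomycin (log2 fold change 0.20 ± 0.05, adjusted p = 0.00552) and was lower with antimycin than with oligomycin (log2 fold change -0.21 ± 0.06, adjusted p = 0.00243). With antimycin 1 of the 7 was called higher and 2 lower, where 23.3% and 22.9% of all genes were. With piericidin the counts were 1 and 0 (5.01% higher and 3.86% lower over all genes), and with oligomycin 3 and 0 (17.5% higher and 17.7% lower over all genes). Antimycin against piericidin gave 1 higher and 3 lower (21.5% higher and 21.0% lower over all genes). Antimycin against oligomycin gave 2 higher and 3 lower (24.4% higher and 25.0% lower over all genes), and piericidin against oligomycin 0 higher and 1 lower (12.4% higher and 13.6% lower over all genes). Point estimates held the full order for 2 of the 7 members, Serpinb9 and Akap2, against 24.0% of all genes.

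Antimycin was also lower than piericidin for Slc20a1 (log2 fold change -0.18 ± 0.07, adjusted p = 0.0434) and Lims1 (log2 fold change -0.14 ± 0.06, adjusted p = 0.0423), and these calls rested on few libraries. Where a call was lost on leaving out a single library or under a setting other than a replicate block, the log2 fold change found then is given in parentheses. The Slc20a1 call of antimycin against piericidin was lost without antimycin replicate 2 or 3 or piericidin replicate 1 or 2 (-0.19 to -0.14) and with no filter on low counts (-0.19). The Lims1 call in that comparison was lost without antimycin replicate 3 or piericidin replicate 2 (-0.11 to -0.08) and with no filter on low counts or a model of the compared groups alone (-0.15). Akap2 was higher with antimycin than with oligomycin (log2 fold change 0.37 ± 0.12, adjusted p = 0.0126). The Akap2 call of antimycin against oligomycin was lost without antimycin replicate 1 or oligomycin replicate 1 or 3 (0.19 to 0.29) and with a model of the compared groups alone (0.35). The Slc20a1 rise with oligomycin was not called with library totals as the only scaling (0.17). The Lims1 rise with oligomycin was not called with library totals as the only scaling or no filter on low counts (0.07 to 0.18).

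Genes of other stress programmes, and the pathway of F3, were read in the same antimycin-treated LbNOX libraries. These lists leave out the 7 genes themselves, and their counts stand beside 23.3% higher and 22.9% lower among all genes. Among targets of the tumour suppressor p53, 10 of 11 genes tested rose and 0 fell (median log2 fold change 1.14 against 0.03 over all genes). Those that moved most were Trp53inp1 at 2.62, Cdkn1a at 1.89, Eda2r at 1.57 and Fas at 1.55, of which Cdkn1a encodes the cell cycle inhibitor p21. Among core genes of the integrated stress response, 9 of 13 genes tested rose and 1 fell (median log2 fold change 0.68 against 0.03 over all genes), led by Trib3 at 2.57 and Vldlr at 1.97. The median of these genes with antimycin in luciferase myoblasts was 2.80. In LbNOX myoblasts all 13 were lower with antimycin than with oligomycin (median -1.91), where 25.0% of all genes were. In the coagulation and fibrinolysis pathway around tissue factor, 6 of 11 genes tested rose and 1 fell (median log2 fold change 0.19 against 0.03 over all genes). The protease-activated receptor gene F2rl2 fell (-2.22), and the urokinase receptor Plaur (0.86) and urokinase Plau (0.77) rose while F3 itself fell. Of 5 proliferation genes, 0 rose and 4 fell (median -0.74), and with antimycin in mitoLbNOX myoblasts 0 rose and 5 fell (-0.72). Their part in the values of the 7 genes was not tested.

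In mitoLbNOX myoblasts all 7 genes rose with antimycin and 1 rose with piericidin. F3 was at 20.5, 17.3 and 21.01 CPM with DMSO, 21.4, 23.4 and 19.1 with piericidin and 111, 100.5 and 96.5 with antimycin. Piericidin and DMSO libraries overlapped, and the antimycin libraries stood clear of both (log2 fold change 2.43 ± 0.13, adjusted p = 5.05e-16 against DMSO). Serpinb9 went from 23.5, 21.8 and 23.2 to 77.7, 81.4 and 78.8 CPM (log2 fold change 1.84 ± 0.08, adjusted p = 1.03e-17) and Slc20a1 from 102, 105 and 90.9 to 228, 209 and 224 CPM (log2 fold change 1.20 ± 0.07, adjusted p = 5.11e-15). These libraries did not overlap either. The others rose by less, Rnf114 by 0.70 ± 0.08 (adjusted p = 1.36e-08) and Lims1 by 0.69 ± 0.05 (adjusted p = 7.36e-12). Akap2 rose by 0.61 ± 0.12 (adjusted p = 8.97e-05) and the adhesion scaffold Bcar1 by 0.38 ± 0.08 (adjusted p = 0.000134).

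In this comparison 7 of the 7 were called higher and 0 lower, where 24.8% and 22.9% of all genes were. With piericidin Serpinb9 alone rose (log2 fold change 0.33 ± 0.08, adjusted p = 0.00798) among the 7 (6.37% higher and 4.82% lower over all genes), from 23.5, 21.8 and 23.2 to 30.2, 27.3 and 27.3 CPM. The other 6 had log2 fold changes between -0.07 for Slc20a1 and 0.14 for F3. The Serpinb9 call was lost without DMSO replicate 2 or piericidin replicate 1 (0.26 to 0.29) and with no filter on low counts (0.33). Antimycin exceeded piericidin for all 7 (20.0% higher and 17.7% lower over all genes). The difference ran from 0.33 ± 0.08 (adjusted p = 0.00109) for Bcar1 to 2.29 ± 0.13 (adjusted p = 4.68e-15) for F3. The upper step of the order, the only one that can be read in this line, was held by all 7. For Bcar1 the lowest antimycin library (52.7 CPM) lay below the highest piericidin library (55.2 CPM), and for the others these libraries did not overlap.

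Set beside the luciferase line as a description, the antimycin log2 fold change in mitoLbNOX was 93.8% as large for Serpinb9, 69.1% for Lims1, 63.2% for F3, 58.4% for Rnf114, 54.4% for Slc20a1, 29.2% for Akap2 and 24.6% for Bcar1. Akap2 and Bcar1, the members with the smallest shares, were the ones closest to DMSO in mitoLbNOX: Akap2 at 78.1, 68.2 and 82.04 CPM against 52.5, 54.9 and 46.8, and Bcar1 at 64.4, 52.7 and 71.04 against 49.8, 51.5 and 47.8. The lowest antimycin library still lay above the highest DMSO library for both.

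The antimycin responses of the mitoLbNOX and LbNOX lines were compared directly through the difference of their log2 fold changes. On this measure 6 of the 7 were called higher and 0 lower, where 16.5% and 12.7% of all genes were. It was 3.10 ± 0.19 (adjusted p = 8.97e-14) for F3, 1.44 ± 0.10 (adjusted p = 1.06e-12) for Slc20a1 and 0.94 ± 0.12 (adjusted p = 2.85e-07) for Serpinb9. For Rnf114 it was 0.71 ± 0.11 (adjusted p = 1.51e-05), for Lims1 0.70 ± 0.08 (adjusted p = 2.84e-08) and, smallest of those called, 0.34 ± 0.11 (adjusted p = 0.0172) for Bcar1. Akap2 had 0.43 ± 0.17 (adjusted p = 0.0538). It was called by DESeq2, with no filter on low counts, with the plate-well term, and without LbNOX antimycin replicate 1 or mitoLbNOX antimycin replicate 2. The Bcar1 call was lost without LbNOX antimycin replicate 3 or mitoLbNOX antimycin replicate 3 (0.24 to 0.29) and with no filter on low counts or a model of the compared groups alone (0.36). Core genes of the integrated stress response differed the same way, with 11 of 13 higher in mitoLbNOX (Atf3 at 4.79 and Ddit3 at 3.31). For p53 targets the difference went the opposite way, with 10 of 11 lower (Trp53inp1 at -2.19 and Fas at -1.56). Their medians were 2.03 and -1.24, beside -0.0017 over all genes tested.

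The gene families around the members were read in mitoLbNOX myoblasts with antimycin, where 24.8% of all genes rose and 22.9% fell. Among focal adhesion genes and partners of integrin-linked kinase, 9 of 24 genes tested rose and 4 fell (median log2 fold change 0.18 against 0.01 over all genes). Lims2, which encodes PINCH2, the paralog of the Lims1 product, was at 2.86, the fibronectin receptor subunit Itga5 at 1.63, Tgfb1i1, which encodes the paxillin relative Hic-5, at 1.59 and Zyx, which encodes zyxin, at 1.31. Of clade B serpins, 7 of 8 genes tested rose and 0 fell (median log2 fold change 1.24 against 0.01 over all genes), with Serpinb9e at 3.27, Serpinb9b at 2.91, Serpinb9g at 2.37 and Serpinb1a at 1.38. Serpinb9b, Serpinb9e and Serpinb9g are close paralogs of Serpinb9, and reads may be shared among them. Genes of protein kinase A and its anchoring fell more often than they rose. Of them, 2 of 18 genes tested rose and 9 fell (median log2 fold change -0.30 against 0.01 over all genes), with Akap6 at -1.14, Pkia at -1.02, Akap12 at 0.80 and Akap13 at -0.75. Pkia encodes an inhibitor of the kinase and the other named genes encode anchoring proteins. Of the phosphate transport genes, 1 of 7 genes tested rose and 1 fell (median log2 fold change 0.16 against 0.01 over all genes). The other sodium-dependent phosphate transporter gene of this family, Slc20a2, was at 0.50 and the pyrophosphate-making enzyme gene Enpp1 at -0.50. In the tissue factor pathway, 6 of 11 genes tested rose and 2 fell (median log2 fold change 0.12 against 0.01 over all genes), with F2rl2 at -2.56, Plaur at 2.31 and Thbd at 2.17. Thbd encodes thrombomodulin. Of 3 E3 ligase genes related to Rnf114, 0 rose and 0 fell (median log2 fold change 0.30 against 0.01 over all genes).

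NDI1 myoblasts showed no response of the 7 genes to piericidin that passed the test. F3 was at 20.2 and 23.3 CPM with DMSO and 19.1 and 24.2 with piericidin, and Serpinb9 at 21.5 and 29.3 with DMSO and 27.1 and 24.6 with piericidin. Both pairs of groups overlapped. In NDI1 myoblasts the DMSO libraries lay in outer wells of the plate and the piericidin libraries in inner wells, so treatment and well position cannot be told apart. Log2 fold changes lay between -0.17 for Bcar1 and 0.08 for Slc20a1. None of the 7 was called by edgeR, with none at an unadjusted p under 0.05 and none by DESeq2. With 2 libraries a group, edgeR called 0.00835% higher and 0% lower over all genes, that is 1 gene, beside 1005 at an unadjusted p under 0.05 in either direction and 6 called by DESeq2.

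**Figure D2:**
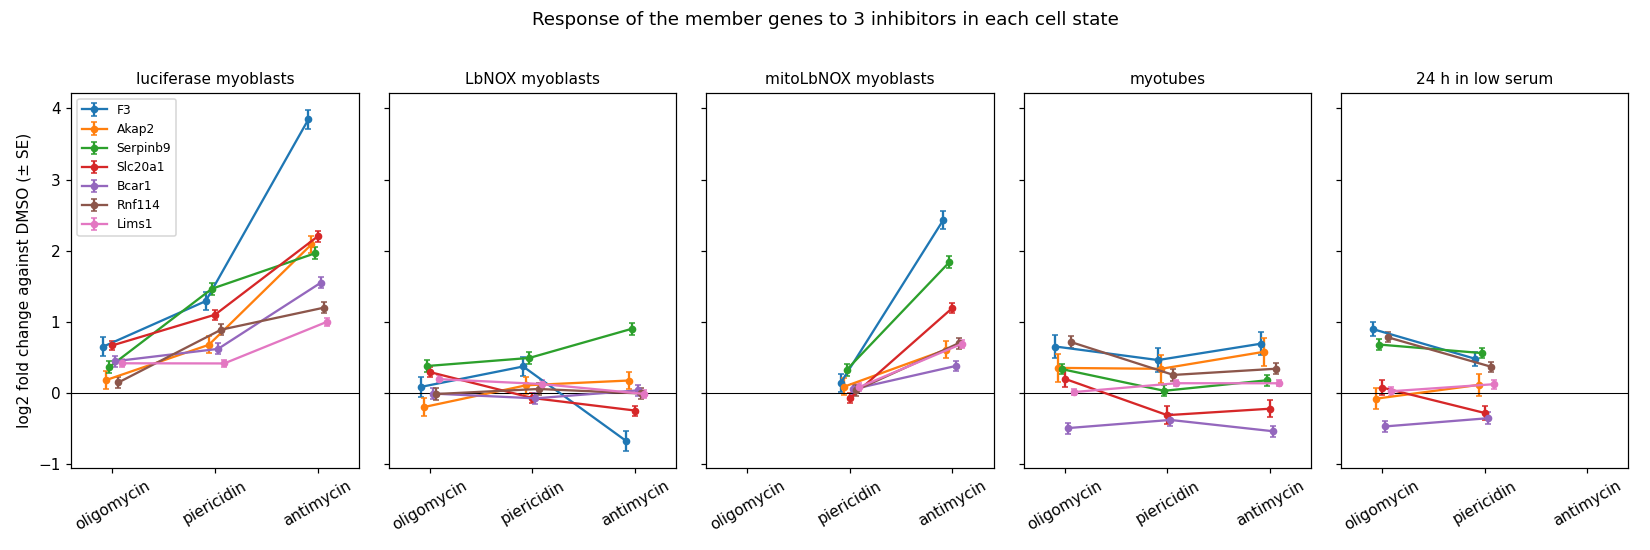
Log2 fold change of each gene against the DMSO libraries of the same cells (y axis, bars are SE) with oligomycin, piericidin and antimycin (x axis), one panel per cell state; a missing point means that the inhibitor was not given there. In luciferase myoblasts lines climb from left to right, up to 3.85 for F3, except that Lims1 is level from oligomycin to piericidin (0.42 at both). Lines also climb from piericidin to antimycin in mitoLbNOX myoblasts, while in LbNOX myoblasts F3 ends at -0.67 and in myotubes Bcar1 stays below 0 with all 3.

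Blocking mitochondrial translation for 48 h moved 2 of the 7 genes in luciferase myoblasts, in opposite directions. Serpinb9 rose from 23.5 and 25.6 to 53.01 and 46.8 CPM (log2 fold change 1.07 ± 0.10, adjusted p = 0.000315) and Bcar1 fell from 54.2 and 58.4 to 40.9 and 40.7 CPM (log2 fold change -0.42 ± 0.08, adjusted p = 0.0151). Over all genes 4.83% were called higher and 3.62% lower. F3, the leading antimycin gene, was at 30.4 and 35.3 CPM with DMSO and 25.2 and 28.5 with chloramphenicol (log2 fold change -0.24 ± 0.12, adjusted p = 0.276), and its libraries lay below the controls without passing the test. The Bcar1 call was lost without chloramphenicol replicate 1 or 2 or DMSO replicate 2 (-0.43 to -0.38) and with a model of the compared groups alone (-0.41). In LbNOX myoblasts none of the 7 was called (0.675% higher and 0.256% lower over all genes). Serpinb9 had 0.39 ± 0.10 (adjusted p = 0.17). Serpinb9, Bcar1 and Lims1, 3 of the 7, had an unadjusted p under 0.05 in edgeR, as did 1498 of the 11704 genes tested, while DESeq2 called none of the 7. The difference between the lines was not past the threshold for any of the 7 (0.453% higher and 0.0769% lower over all genes). It was 0.68 ± 0.14 (adjusted p = 0.123) for Serpinb9, with 2 of the 7 at an unadjusted p under 0.05, beside 1181 of all genes, and none of the 7 called by DESeq2.

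In untransduced myotubes the point estimates of none of the 7 genes held the order, but antimycin and piericidin could not be parted for any of them. F3 gave 9.76, 8.21 and 7.64 CPM with DMSO, 12.8, 9.74 and 12.7 with piericidin, 15.5, 14.5 and 10.8 with antimycin and 12.7, 12.8 and 14.7 with oligomycin. Antimycin and oligomycin libraries both lay above DMSO and overlapped each other. F3 rose with antimycin (log2 fold change 0.69 ± 0.16, adjusted p = 0.00443) and with oligomycin (log2 fold change 0.65 ± 0.16, adjusted p = 0.00291), with a difference between them of 0.04 ± 0.16 (adjusted p = 0.903). Rnf114 responded most to oligomycin, at 67.7, 67.2 and 76.4 CPM over 42.8, 45.6 and 40.2 with DMSO (log2 fold change 0.72 ± 0.08, adjusted p = 8.66e-08). With antimycin it reached 58.7, 50.9 and 52.5 CPM (log2 fold change 0.34 ± 0.08, adjusted p = 0.00402). Antimycin against oligomycin was -0.38 ± 0.08 (adjusted p = 0.000697), the reverse of this ligase gene's order in luciferase myoblasts.

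Bcar1 fell in myotubes with each of the 3 inhibitors. Its libraries gave 45.6, 41.7 and 42.7 CPM with DMSO, 35.4, 32.97 and 31.7 with piericidin, 27.2, 31.9 and 30.1 with antimycin and 32.6, 31.7 and 27.8 with oligomycin. Every inhibitor library lay below every DMSO library. It fell with antimycin (log2 fold change -0.54 ± 0.08, adjusted p = 2.69e-05), piericidin (log2 fold change -0.38 ± 0.08, adjusted p = 0.00249) and oligomycin (log2 fold change -0.49 ± 0.08, adjusted p = 2.28e-05). Serpinb9, at 46.4, 44.8 and 47.4 CPM with DMSO, rose with oligomycin to 60.7, 55.2 and 58.9 (log2 fold change 0.34 ± 0.08, adjusted p = 0.00124) and had 0.18 ± 0.08 (adjusted p = 0.131) with antimycin. Slc20a1 did not pass the test with any of the 3 inhibitors against DMSO, but was lower with antimycin (log2 fold change -0.42 ± 0.12, adjusted p = 0.0121) and with piericidin (log2 fold change -0.51 ± 0.12, adjusted p = 0.00257) than with oligomycin.

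With antimycin 4 of the 7 were called higher and 1 lower, where 6.64% and 6.27% of all genes were. With piericidin the counts were 1 and 1 (4.15% higher and 4.84% lower over all genes), and with oligomycin 3 and 1 (16.9% higher and 16.4% lower over all genes). Antimycin against oligomycin gave 1 higher and 2 lower (9.71% higher and 11.8% lower over all genes), and piericidin against oligomycin 1 higher and 3 lower (13.6% higher and 14.5% lower over all genes). Antimycin against piericidin gave none by edgeR (0.496% higher and 0.160% lower over all genes), with none at an unadjusted p under 0.05 and none by DESeq2. The full order was held by 0 of the 7 point estimates and by 17.2% of all genes. Antimycin gave the highest point estimate for 2 of the 7, F3 and Akap2, and for 26.3% of all genes. Lims1 had 0.14 with both antimycin and piericidin.

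Several of the small calls in myotubes depended on single libraries. Akap2 (log2 fold change 0.58 ± 0.19, adjusted p = 0.0491) and Lims1 (log2 fold change 0.14 ± 0.04, adjusted p = 0.0391) rose with antimycin, and Rnf114 with piericidin (log2 fold change 0.26 ± 0.08, adjusted p = 0.0468). The Akap2 call was lost without antimycin replicate 1, 2 or 3 or DMSO replicate 1 or 2 (0.45 to 0.64) and with DESeq2 size factors, the plate-well term or DESeq2's Wald test (0.54 to 0.57). The Lims1 antimycin call was lost without antimycin replicate 1, 2 or 3 or DMSO replicate 2 or 3 (0.11 to 0.15) and with DESeq2 size factors, no filter on low counts, the plate-well term, a model of the compared groups alone or DESeq2's Wald test (0.12 to 0.13). The Rnf114 call with piericidin was lost without DMSO replicate 1 or 3 or piericidin replicate 1, 2 or 3 (0.21 to 0.27) and with library totals as the only scaling, no filter on low counts, a model of the compared groups alone or DESeq2's Wald test (0.24 to 0.26). Lims1 was also higher with antimycin (log2 fold change 0.12 ± 0.04, adjusted p = 0.0474) and piericidin (log2 fold change 0.12 ± 0.04, adjusted p = 0.0382) than with oligomycin. The Lims1 call of antimycin against oligomycin was lost without antimycin replicate 1, 2 or 3 or oligomycin replicate 2 or 3 (0.07 to 0.13) and with DESeq2 size factors, library totals as the only scaling, no filter on low counts, a model of the compared groups alone or DESeq2's Wald test (0.11 to 0.13). The Lims1 call of piericidin against oligomycin was lost without oligomycin replicate 3 or piericidin replicate 1, 2 or 3 (0.07 to 0.14) and with library totals as the only scaling, no filter on low counts, a model of the compared groups alone or DESeq2's Wald test (0.08 to 0.12).

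Among core genes of the integrated stress response in myotubes, 13 of 13 rose with oligomycin (median log2 fold change 1.91), 11 with antimycin (0.65) and 3 with piericidin (0.24). The shares of all genes that rose were 16.9%, 6.64% and 4.15%, and 16.4% fell with oligomycin. The medians over all genes were -0.01, 0.01 and 0.01. Of 8 genes of differentiated muscle, 2 rose and 3 fell with oligomycin, 4 and 3 with antimycin and 3 and 3 with piericidin. Their part in the values of the 7 was not tested. Of the genes around Bcar1 and Lims1 at adhesions, 5 of 24 genes tested rose and 8 fell (median log2 fold change -0.02 against -0.01 over all genes) with oligomycin, among them Lims2 at 0.92, Itgav at -0.86, Itgb1 at -0.76 and Tln1 at 0.70. Itgav and Itgb1 encode integrin subunits. Of clade B serpins, 4 of 9 genes tested rose and 1 fell (median log2 fold change 0.51 against -0.01 over all genes), with Serpinb9g at 2.79, Serpinb9c at 1.81, Serpinb9e at 1.65 and Serpinb1a at -0.61. Of the tissue factor pathway, 1 of 10 genes tested rose and 4 fell (median log2 fold change -0.08 against -0.01 over all genes). Anxa2, which encodes annexin A2, fell (-0.50) and the urokinase receptor gene Plaur rose (0.48).

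**Figure D3:**
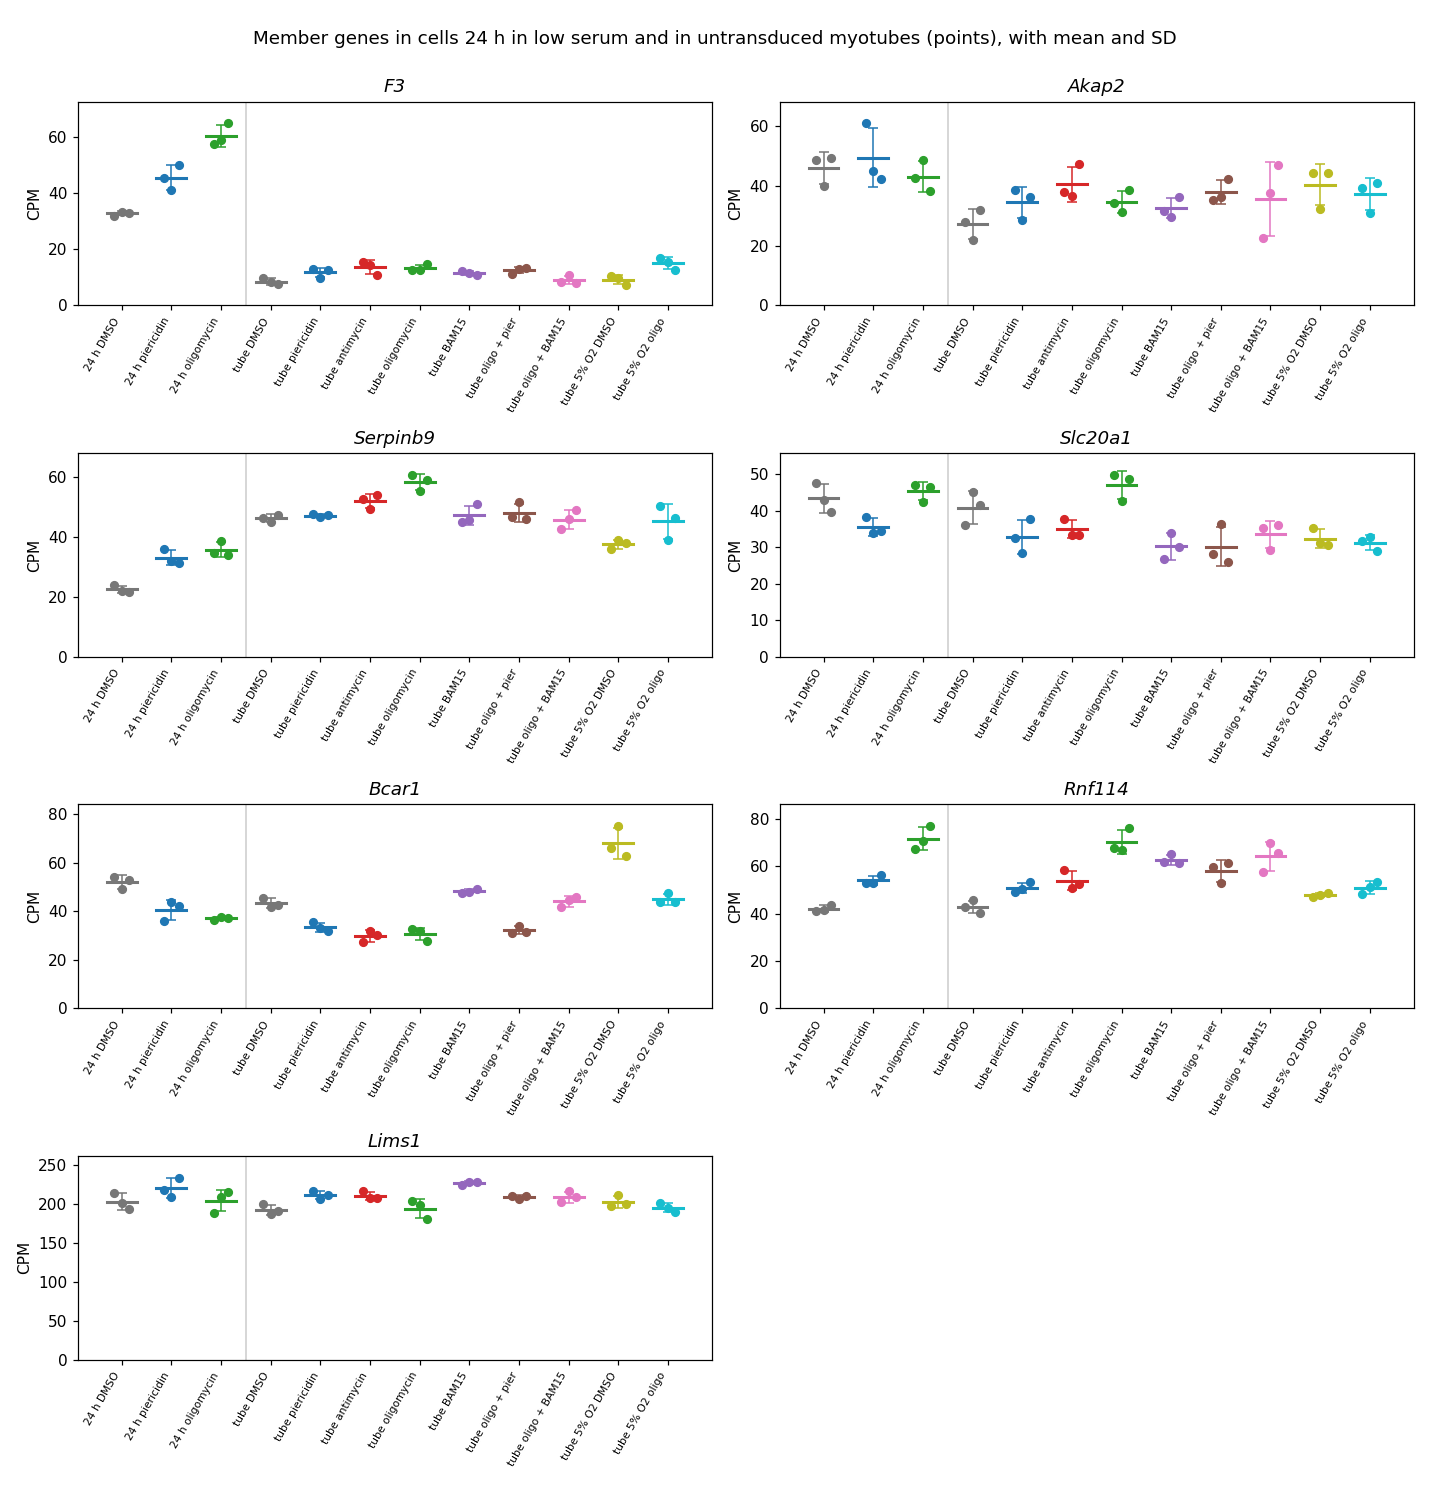
Level of each gene in cells 24 h in low serum (left of the vertical line) and in untransduced myotubes (right), in CPM on a linear axis from 0; points are libraries, horizontal lines are means and bars are SD. F3 lies between 32.0 and 64.9 CPM at 24 h and between 7.43 and 17.02 CPM in myotubes, and Bcar1 is lowest with antimycin and oligomycin and highest in 5% oxygen.

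Several members were lower in myotubes with a second treatment added to oligomycin than with oligomycin alone. Serpinb9 was at 60.7, 55.2 and 58.9 CPM with oligomycin alone, 46.7, 51.5 and 45.97 with piericidin added, 42.5, 45.9 and 48.8 with BAM15 added and 50.4, 38.98 and 46.4 in 5% oxygen. Each of these groups lay wholly below oligomycin alone. The log2 differences were -0.28 ± 0.08 (adjusted p = 0.00856), -0.35 ± 0.08 (adjusted p = 0.00102) and -0.35 ± 0.08 (adjusted p = 0.000876). Slc20a1 fell in all 3 as well, from 49.8, 42.5 and 48.6 CPM to 28.2, 36.2 and 25.9 with piericidin added (log2 fold change -0.65 ± 0.12, adjusted p = 0.000334). Its log2 difference was -0.49 ± 0.12 (adjusted p = 0.00352) with BAM15 and -0.57 ± 0.12 (adjusted p = 0.000696) in 5% oxygen. Rnf114 fell with piericidin added (log2 fold change -0.28 ± 0.08, adjusted p = 0.00938) and in 5% oxygen (log2 fold change -0.45 ± 0.08, adjusted p = 6.86e-05), and had -0.13 ± 0.08 (adjusted p = 0.229) with BAM15. F3 fell only with BAM15 among the 3 additions (log2 fold change -0.57 ± 0.16, adjusted p = 0.00946), to 8.29, 10.7 and 8.001 CPM. Without oligomycin, against DMSO in ambient oxygen, piericidin, BAM15 and 5% oxygen gave 0.03, 0.04 and -0.30 for Serpinb9. For Slc20a1 they gave -0.31, -0.43 and -0.34, and oligomycin alone gave 0.20, not called. For Rnf114 (0.26, 0.56 and 0.16) and F3 (0.46, 0.45 and 0.10) they were positive. Whether the additions changed the response to oligomycin was not tested.

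Bcar1 was higher with 2 of the additions than with oligomycin alone. Without oligomycin it had log2 fold changes of 0.65 in 5% oxygen and 0.16 with BAM15, the latter not called. It was at 41.6, 44.6 and 45.9 CPM with oligomycin and BAM15 and at 43.6, 47.6 and 43.8 with oligomycin in 5% oxygen, all above the libraries with oligomycin alone. Both differences passed the test (log2 fold change 0.52 ± 0.08, adjusted p = 1.5e-05, and log2 fold change 0.56 ± 0.08, adjusted p = 3.42e-06). With piericidin added it was at 30.9, 33.97 and 31.5 CPM (log2 fold change 0.06 ± 0.08, adjusted p = 0.671). With piericidin added 0 of the 7 were called higher and 3 lower, where 8.46% and 12.4% of all genes were. With BAM15 the counts were 1 and 3 (12% higher and 14.1% lower over all genes), and in 5% oxygen 1 and 3 (16.7% higher and 16.5% lower over all genes). In that last comparison 5 of 5 proliferation genes fell (median -2.56), and their part in the values of Bcar1, Serpinb9, Slc20a1 and Rnf114 was not tested. None of the 5 was called with piericidin or BAM15 added. The Rnf114 call with piericidin added was lost without oligomycin replicate 3 or oligomycin with piericidin replicate 2 (-0.22).

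By itself 5% oxygen raised Bcar1 from 45.6, 41.7 and 42.7 to 66.1, 75.01 and 62.8 CPM (log2 fold change 0.65 ± 0.08, adjusted p = 3.25e-07), its highest mean outside the luciferase groups with inhibitors. Akap2 rose (log2 fold change 0.57 ± 0.19, adjusted p = 0.0368), and Serpinb9 (log2 fold change -0.30 ± 0.08, adjusted p = 0.00691) and Slc20a1 (log2 fold change -0.34 ± 0.12, adjusted p = 0.0476) fell. In 5% oxygen 2 of the 7 were called higher and 2 lower, where 12.3% and 9.78% of all genes were. The Akap2 call in 5% oxygen was lost without DMSO replicate 1 or 2 or 5% oxygen DMSO replicate 1 or 3 (0.44 to 0.59) and with library totals as the only scaling (0.49). The Slc20a1 call in 5% oxygen was lost without DMSO replicate 2 or 3 or 5% oxygen DMSO replicate 2 or 3 (-0.34 to -0.26). Of the adhesion genes around Bcar1, 9 of 24 genes tested rose and 0 fell (median log2 fold change 0.19 against 0.02 over all genes), among them Lims2 at 1.47, Nedd9 at 0.83, Fermt2 at 0.76 and Tns3 at 0.57. Nedd9 encodes a relative of the Bcar1 product. All 5 proliferation genes, 5 of 5, fell in the same comparison (median -2.61), and their part in the Bcar1 value was not tested.

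Within 5% oxygen, oligomycin lowered Bcar1 again (log2 fold change -0.58 ± 0.08, adjusted p = 1.74e-05) and raised F3 from 10.5, 9.62 and 7.43 to 17.02, 15.6 and 12.6 CPM (log2 fold change 0.74 ± 0.16, adjusted p = 0.00717). Serpinb9 rose as well (log2 fold change 0.28 ± 0.08, adjusted p = 0.0412), so that 2 of the 7 were called higher and 1 lower, where 2.04% and 2.22% of all genes were. Rnf114, at 46.99, 48.03 and 48.9 CPM without oligomycin and 48.3, 51.5 and 53.5 CPM with it, had 0.11 ± 0.08 (adjusted p = 0.597). Whether its response to oligomycin differed between oxygen levels was not tested. The F3 call was lost without 5% oxygen DMSO replicate 3 or 5% oxygen oligomycin replicate 1 (0.60 to 0.64) and with a model of the compared groups alone (0.74). The Serpinb9 call within 5% oxygen was lost without 5% oxygen DMSO replicate 1, 2 or 3 or 5% oxygen oligomycin replicate 1 or 3 (0.20 to 0.31) and with library totals as the only scaling, no filter on low counts, the plate-well term, a model of the compared groups alone or DESeq2's Wald test (0.26 to 0.30).

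BAM15 alone raised Rnf114 from 42.8, 45.6 and 40.2 to 61.8, 65.3 and 61.4 CPM (log2 fold change 0.56 ± 0.08, adjusted p = 8.94e-06) and Lims1 from 199.5, 187 and 191 to 225, 229 and 228 CPM (log2 fold change 0.25 ± 0.04, adjusted p = 0.000191). This was the largest of the Lims1 log2 fold changes in untransduced myotubes. The groups did not overlap for either gene. F3 rose (log2 fold change 0.45 ± 0.16, adjusted p = 0.0438) and Slc20a1 fell (log2 fold change -0.43 ± 0.12, adjusted p = 0.0119). With BAM15 3 of the 7 were called higher and 1 lower, where 13.2% and 12.2% of all genes were. Bcar1 had 0.16 ± 0.08 (adjusted p = 0.118), Akap2 0.26 ± 0.20 (adjusted p = 0.35) and Serpinb9 0.04 ± 0.08 (adjusted p = 0.765). The F3 call with BAM15 was lost without BAM15 replicate 1, 2 or 3 or DMSO replicate 2 or 3 (0.38 to 0.50) and with DESeq2 size factors, library totals as the only scaling, no filter on low counts, a model of the compared groups alone or DESeq2's Wald test (0.43 to 0.45). The Slc20a1 call with BAM15 was lost without BAM15 replicate 1 or DMSO replicate 2 (-0.35 to -0.34).

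Myotubes that carried GFP or LbNOX from adenovirus had Serpinb9 and Rnf114 higher and Bcar1 lower with oligomycin, in both kinds. In GFP myotubes Serpinb9 was at 48.99 and 52.9 CPM with DMSO and 82.9 and 85.5 with oligomycin (log2 fold change 0.71 ± 0.09, adjusted p = 3.56e-05). In LbNOX myotubes it was at 50.5, 56.3 and 54.9 CPM with DMSO and 77.5, 76.1 and 78.9 with oligomycin (log2 fold change 0.51 ± 0.07, adjusted p = 8.11e-05). Neither pair of groups overlapped. Rnf114 rose, with a log2 fold change of 0.74 ± 0.11 (adjusted p = 0.000134) in GFP and 0.51 ± 0.09 (adjusted p = 0.000431) in LbNOX myotubes. Bcar1 fell, with -0.60 ± 0.08 (adjusted p = 3.64e-05) in GFP and -0.48 ± 0.06 (adjusted p = 3.24e-05) in LbNOX myotubes. F3 rose with oligomycin in GFP myotubes (log2 fold change 0.92 ± 0.24, adjusted p = 0.0109) and had 0.41 ± 0.20 (adjusted p = 0.138) in LbNOX myotubes, where Slc20a1 rose (log2 fold change 0.54 ± 0.12, adjusted p = 0.00305).

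The difference of the oligomycin responses between LbNOX and GFP myotubes passed the threshold for none of the 7, and none had an unadjusted p under 0.05 or was called by DESeq2. Over all genes edgeR called 0% higher and 0% lower, with 525 at an unadjusted p under 0.05, and DESeq2 called 1. The difference for F3 was -0.52 ± 0.31 (adjusted p = 0.973). Oligomycin gave 3 higher and 1 lower of the 7 in GFP myotubes (13.8% higher and 12.1% lower over all genes) and the same counts in LbNOX myotubes (16.6% higher and 15.4% lower over all genes). Of the 7, Bcar1 alone passed the test with piericidin. It fell from 49.5 and 47.2 to 32.9 and 31.5 CPM in GFP myotubes (log2 fold change -0.59 ± 0.08, adjusted p = 0.000486), where calls were 1.37% higher and 1.72% lower over all genes. It fell from 44.5, 48.4 and 48.4 to 32.2, 33.1 and 32.4 in LbNOX myotubes (log2 fold change -0.54 ± 0.06, adjusted p = 9.35e-05), where calls were 3.24% higher and 3.54% lower over all genes. The F3 call in GFP myotubes was lost without DMSO replicate 2 or oligomycin replicate 2 (0.61 to 0.90) and with a model of the compared groups alone (0.94). The Bcar1 call with piericidin in GFP myotubes was lost with a model of the compared groups alone (-0.59).

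In cells 24 h in low serum F3, Rnf114 and Serpinb9 rose and Bcar1 fell with both piericidin and oligomycin. F3 was at 32.03, 33.5 and 32.9 CPM with DMSO, 45.4, 41.2 and 50.04 with piericidin and 57.6, 59.05 and 64.9 with oligomycin. These 3 groups did not overlap, and both rises passed the test (log2 fold change 0.48 ± 0.10, adjusted p = 0.00852, and log2 fold change 0.90 ± 0.10, adjusted p = 1.81e-06). Piericidin against oligomycin was -0.42 ± 0.10 (adjusted p = 0.00534), the reverse of the order in luciferase myoblasts. Rnf114 was at 41.2, 41.4 and 43.8 CPM with DMSO, 53.2, 53.1 and 56.4 with piericidin and 67.3, 70.8 and 76.99 with oligomycin, again without overlap. It rose by 0.37 ± 0.07 (adjusted p = 0.00463) with piericidin and by 0.78 ± 0.07 (adjusted p = 1.4e-07) with oligomycin, and the difference between them was -0.41 ± 0.07 (adjusted p = 0.000348). Serpinb9 rose with piericidin (log2 fold change 0.56 ± 0.07, adjusted p = 0.000135) and oligomycin (log2 fold change 0.68 ± 0.07, adjusted p = 1.28e-06), and the piericidin and oligomycin libraries overlapped. Bcar1 fell with piericidin, from 54.2, 49.03 and 52.98 to 35.8, 43.7 and 42.3 CPM (log2 fold change -0.35 ± 0.08, adjusted p = 0.0181), and with oligomycin (log2 fold change -0.47 ± 0.08, adjusted p = 0.00033).

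Slc20a1 was lower with piericidin than with oligomycin (log2 fold change -0.36 ± 0.11, adjusted p = 0.0252), and Akap2 and Lims1 passed no test at 24 h. With piericidin 3 of the 7 were called higher and 1 lower, where 1.65% and 1.77% of all genes were. With oligomycin the counts were 3 and 1 (10.5% higher and 11% lower over all genes), and piericidin against oligomycin gave 0 higher and 3 lower (8.39% higher and 7.56% lower over all genes). With oligomycin 13 of 13 core stress response genes rose (median 2.41). With piericidin 1 of them rose and 3 fell (median -0.03), in the same libraries in which F3, Rnf114 and Serpinb9 rose. Of 8 genes of differentiated muscle, 1 rose and 4 fell with piericidin (median -0.10) and 1 rose and 5 fell with oligomycin (-0.15). Of 5 proliferation genes, 0 fell with piericidin and 3 with oligomycin (-0.16 and -0.32). The part of these genes in the values of the 7 was not tested. The Bcar1 call with piericidin at 24 h was lost without DMSO replicate 1 or 3 or piericidin replicate 1 (-0.34 to -0.27) and with a model of the compared groups alone (-0.35). The F3 call with piericidin was lost without piericidin replicate 3 (0.40). The Slc20a1 call of piericidin against oligomycin was lost without oligomycin replicate 1 or 3 or piericidin replicate 2 or 3 (-0.35 to -0.32) and with library totals as the only scaling (-0.35).

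Between 24 h and 4 days in low serum, with DMSO in both, the members' own levels changed. F3 fell from 32.03, 33.5 and 32.9 to 9.76, 8.21 and 7.64 CPM (log2 fold change -1.93 ± 0.12, adjusted p = 2.35e-10) and Akap2 fell (log2 fold change -0.74 ± 0.16, adjusted p = 0.000942), while Serpinb9 rose from 23.8, 21.9 and 21.8 to 46.4, 44.8 and 47.4 CPM (log2 fold change 1.05 ± 0.07, adjusted p = 1.55e-09). No library of one state overlapped the other for F3 or Serpinb9. Bcar1 fell slightly (log2 fold change -0.25 ± 0.08, adjusted p = 0.0215). Slc20a1, Rnf114 and Lims1 were not called, with log2 fold changes of -0.07, 0.04 and -0.06. In this comparison 1 of the 7 was called higher and 3 lower, where 19.5% and 17.1% of all genes were. The Bcar1 call was lost without 24 h DMSO replicate 1 or 3 or myotube DMSO replicate 2 or 3 (-0.24 to -0.22) and with no filter on low counts or the plate-well term (-0.24 to -0.03). All 24 h libraries lay in outer wells of the plate and all 3 myotube DMSO libraries in inner wells, so in these libraries state and well position cannot be told apart. The plate-well term, which rests on the myotube oligomycin libraries, the only group here with both positions, gave -2.12 for F3, -0.97 for Akap2 and 1.04 for Serpinb9, all still called. Of 5 proliferation genes, 5 fell from 24 h to 4 days (median -0.67). Of 4 myoblast identity genes, 1 rose and 3 fell (-0.66), and of 8 genes of differentiated muscle 5 rose and 1 fell (0.25). The part of these lists in the members' values was not tested. The response to oligomycin did not differ between the 2 states past the threshold for any of the 7 (2.96% higher and 1.85% lower over all genes). Serpinb9 had -0.34 ± 0.10 (adjusted p = 0.0581) and was the only member with an unadjusted p under 0.05, and DESeq2 called none.

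Ranked over all 35 groups, the mean level of F3 ran from 7.56 ± 2.81 CPM in GFP DMSO myotubes (n = 2) to 215 ± 8.08 in luciferase antimycin myoblasts (n = 3), followed by mitoLbNOX antimycin myoblasts at 103 ± 7.39 and 24 h oligomycin cells at 60.5 ± 3.87. Luciferase antimycin myoblasts held the highest mean for 6 of the 7 genes, and for those 6 their libraries lay above those of every other group, as they did for 4.62% of all genes. The 7 were chosen on their antimycin values in that line, so nothing is read from this. Serpinb9 was highest in GFP oligomycin myotubes, at 84.2 ± 1.85 CPM, above mitoLbNOX antimycin myoblasts, LbNOX oligomycin myotubes and luciferase antimycin myoblasts, the last at 72.2 ± 1.92. The lowest groups were GFP DMSO myotubes for F3, untransduced DMSO myotubes for Akap2 (27.2 ± 5.02 CPM), luciferase DMSO myoblasts for Serpinb9 (19.1 ± 0.366), LbNOX DMSO myotubes for Slc20a1 (28.4 ± 0.576), antimycin myotubes for Bcar1 (29.7 ± 2.38), LbNOX chloramphenicol myoblasts for Rnf114 (32.7 ± 2.49) and LbNOX antimycin myoblasts for Lims1 (152 ± 9.69). Most neighbours in these orders could not be parted: of the 34 steps between neighbouring groups, the libraries were separate in 5 for F3, 2 for Akap2, 6 for Serpinb9, 4 for Slc20a1, 4 for Bcar1, 3 for Rnf114 and 3 for Lims1.

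**Figure D4:**
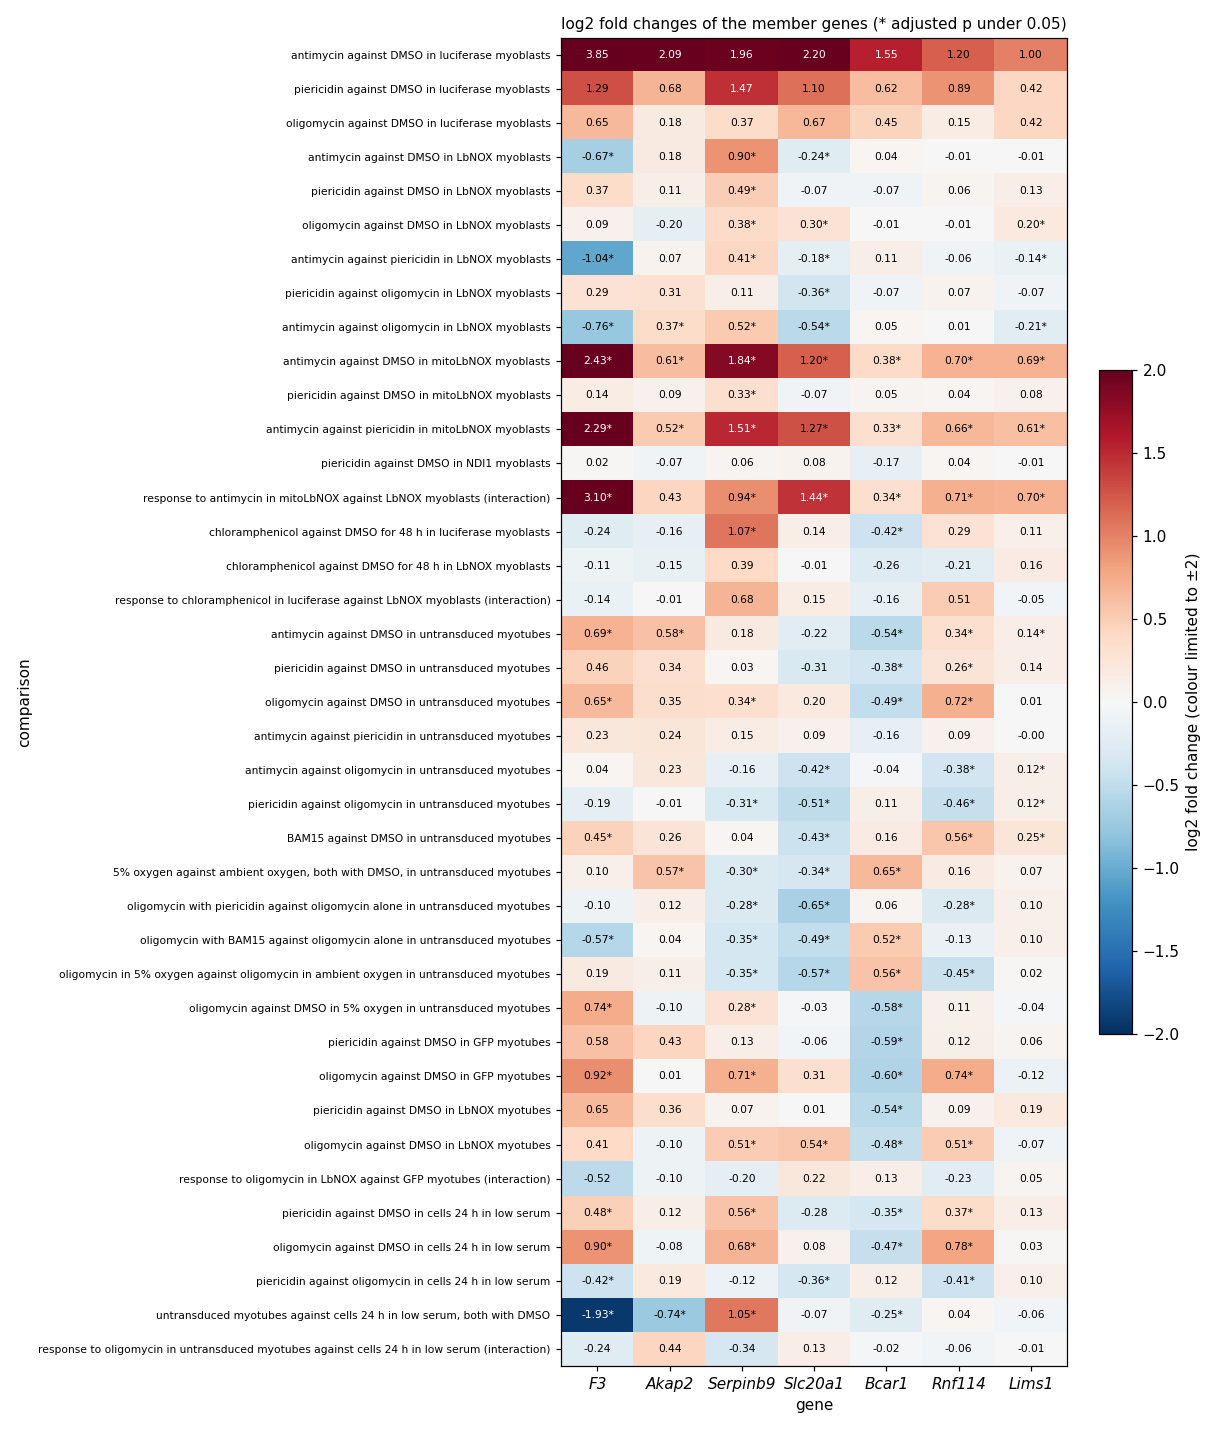
Log2 fold changes of the 7 genes (columns) in 39 comparisons (rows), coloured from blue (lower) to red (higher) with the colour limited to 2 in either direction; an asterisk marks an adjusted p under 0.05, and the first 3 rows, which served to choose the genes, carry none. The antimycin row of mitoLbNOX myoblasts is red throughout, from 0.38 to 2.43, and the Bcar1 column is blue, with an asterisk, in the 10 rows that set piericidin, antimycin or oligomycin against DMSO in myotubes and 24 h cells.

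Over 20 log2 fold changes against controls that the choice did not use, which share DMSO libraries in part, the correlation of each member with the median of the other 6 was 0.76 for F3, 0.53 for Rnf114, 0.51 for Slc20a1, 0.43 for Lims1, 0.40 for Serpinb9, 0.23 for Akap2 and 0.06 for Bcar1. Among 9858 genes ranked by Pearson correlation over the same 20 values, the profiles most like the members' median were those of Npc1 (0.90), Rusc2 (0.90), Itga5 (0.86), Alg2 (0.86) and Nr2c1 (0.86), and those most like F3 were Nrp2 (0.86), Tollip (0.85) and Alg2 (0.83). These are descriptions across comparisons and carry no test.

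The overlapping gene Pakap was read beside Akap2 because their reads may be shared. Both were higher with antimycin in luciferase myoblasts, by 2.32 for Pakap and 2.09 for Akap2. In LbNOX myoblasts Pakap rose with antimycin by 0.74 (adjusted p = 2.84e-06) where Akap2 had 0.18 ± 0.12 (adjusted p = 0.24), and in mitoLbNOX myoblasts they rose by 0.77 and 0.61. In myotubes Pakap had 0.07 with antimycin (adjusted p = 0.854) and Akap2 0.58. The Akap2 values are therefore given as uncertain in how reads were assigned between the overlapping genes.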

How the data were processed

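RNA-seq was made from 96 libraries of C2C12 cells in 35 groups, 26 of 3 libraries and 9 of 2. Per the study's methods and the submitters' processing notes, the authors demultiplexed reads with bcl2fastq 2.20.0.422, pooled the flow cells of each library and quantified full-length polyA libraries with kallisto 0.44 against Ensembl transcripts of the mm10 genome plus the transgenes, and the deposited values are estimated counts per gene, given as whole numbers without normalization. The library kit does not mark strand, so reads of genes that overlap on opposite strands cannot be parted by it. Akap2 and Pakap lie on the same strand, and kallisto shares reads among similar transcripts.

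The counts were used as deposited. A gene entered a model if all libraries of some group in it held 16 counts or more, and was tested with edgeR 4.0.16 (R 4.3.3; TMM scaling, quasi-likelihood F tests on a model of group means) in 5 models: 10 h myoblasts, 48 h myoblasts, untransduced myotubes, myotubes with adenovirus, and cells 24 h in low serum with the untransduced myotubes they are compared with. P-values were adjusted by Benjamini-Hochberg over all genes of a comparison, with a threshold of 0.05. The SE of a log2 fold change was derived from it and its F statistic. CPM were scaled with TMM factors over all 96 libraries. Library totals lay between 6458295 and 15366745 counts, and p-values cover the spread between libraries, not the origin of the cultures. No pair of replicates in a group held identical counts, and all differed beyond sampling noise. The scripts were tested on simulated data.

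The 7 genes and the lists of related genes were chosen with earlier results of these data known. The rule for named genes covers all 7 in every comparison, with those not called given in part by counts or ranges, and of each list at most 4 genes, those with the largest absolute log2 fold change among the ones called. The values of 1 gene of the tissue factor list are not reported here. Other fits used DESeq2 size factors or DESeq2 1.42.0's Wald test, no count filter, the replicate number as a block, outer or inner position on the plate (the plate-well term), the compared groups alone, and each library left out. Library totals as the only scaling were added after seeing the data. Replicate numbers did not pair libraries: the correlation of same-numbered libraries' deviations from their group means ran from -0.421 to 0.455.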

Additional observations from a re-analysis of the deposited data

Results flagged for a closer look

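The response to antimycin differed between mitoLbNOX and LbNOX myoblasts for 6 of the 7 genes, by edgeR's interaction test with adjusted p-values. The difference of log2 fold changes (mitoLbNOX minus LbNOX) was 3.10 for F3 (adjusted p = 8.97e-14), 1.44 for Slc20a1 (1.06e-12), 0.94 for Serpinb9 (2.85e-07), 0.71 for Rnf114 (1.51e-05), 0.70 for Lims1 (2.84e-08) and 0.34 for Bcar1 (0.0172). Akap2 had 0.43 (0.0538), and all 7 were called by DESeq2's Wald test. With 1 library left out 5 to 7 were called. The Bcar1 value was not called without LbNOX antimycin replicate 3 (0.29) or without mitoLbNOX antimycin replicate 3 (0.24).

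The sign of the antimycin response also differed between states for 3 genes, with every treated library on one side of its DMSO libraries in one state and on the other side in another. Of the 11367 genes tested in both models, 13.4% met the same criterion over LbNOX myoblasts, mitoLbNOX myoblasts and untransduced myotubes. F3 had 2.43 in mitoLbNOX myoblasts, 0.69 in untransduced myotubes and -0.67 in LbNOX myoblasts. Bcar1 had 0.38 in mitoLbNOX myoblasts and -0.54 in untransduced myotubes. Slc20a1 had 1.20 in mitoLbNOX myoblasts and -0.24 in LbNOX myoblasts. The differences between myoblasts and myotubes were not tested, since these cells were fitted in separate models.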

How the results depend on the processing

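Of 105 calls of the 7 genes in 36 comparisons, 79 held under every alternative run, and no called value changed sign. The 3332 recomputed values include those of genes not called, which had no call to lose. Among them 131 lost a call, 78 of these with 1 library left out, and 34 gained one. The number of genes called higher moved by over 1.5 times in the following cases, for which the cause was not tested. Piericidin against DMSO in LbNOX myoblasts went from 1 to 2 with no count filter, with the plate-well term and with DESeq2's Wald test. Oligomycin against DMSO in LbNOX myoblasts went from 3 to 1 with library totals only, and piericidin against oligomycin there from 0 to 1 with library totals only, no count filter or DESeq2's Wald test. Antimycin against oligomycin in LbNOX myoblasts went from 2 to 1 with only the groups compared. Piericidin against DMSO in mitoLbNOX myoblasts went from 1 to 0, and the chloramphenicol response of luciferase against LbNOX myoblasts from 0 to 1, with no count filter. In untransduced myotubes, antimycin against DMSO went from 4 to 2 with DESeq2 size factors, the plate-well term or DESeq2's Wald test. Piericidin against DMSO went from 1 to 0 with library totals only, no count filter, only the groups compared or DESeq2's Wald test, and to 2 with the plate-well term. Antimycin against oligomycin went from 1 to 0 with DESeq2 size factors, library totals only, no count filter, only the groups compared or DESeq2's Wald test, and piericidin against oligomycin from 1 to 0 with the same settings except DESeq2 size factors. In 5% oxygen against ambient oxygen the count went from 2 to 1 with library totals only. Oligomycin against DMSO in 5% oxygen went from 2 to 1 with library totals only, no count filter, the plate-well term or DESeq2's Wald test, and to 0 with only the groups compared. Piericidin against DMSO in LbNOX myotubes went from 0 to 3 with no count filter, 1 with only the groups compared and 2 with DESeq2's Wald test. With 1 library left out the counts ran from 1 to 2 for piericidin against DMSO, 0 to 1 for piericidin against oligomycin and 1 to 2 for antimycin against oligomycin in LbNOX myoblasts, and from 0 to 1 for piericidin in mitoLbNOX myoblasts. In untransduced myotubes they ran from 2 to 3 for antimycin, 0 to 1 for piericidin, 0 to 1 for antimycin or piericidin against oligomycin, 1 to 2 for 5% oxygen, 0 to 1 with piericidin added to oligomycin, 1 to 2 with BAM15 added and 0 to 2 for oligomycin in 5% oxygen. In LbNOX myotubes they ran from 0 to 1 for piericidin. Smaller moves were 3 to 2 for BAM15 in untransduced myotubes (5 settings), for oligomycin in GFP myotubes (only the groups compared) and for oligomycin in LbNOX myoblasts (no count filter), and, in untransduced myotubes, 4 to 3 for antimycin (no count filter or only the groups compared) and 3 to 4 for oligomycin (no count filter). The mitoLbNOX against LbNOX antimycin response went from 6 to 5 with only the groups compared and to 7 with the replicate block, the plate-well term or DESeq2's Wald test. With 1 library left out the counts ran from 2 to 4 for oligomycin in GFP myotubes, 5 to 7 for that response, 2 to 3 for BAM15 and 2 to 3 for piericidin at 24 h. Where 1 library remained in a group, it was assumed to vary like the others.

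The replicate block gave 0 in place of 1 for piericidin against DMSO and for antimycin against oligomycin in untransduced myotubes, where the Rnf114 call (0.25) and the Lims1 call (0.12) were lost, and moved no other count by over 1.5 times. The lower call of Slc20a1 in 5% oxygen (-0.34) was also lost, and Akap2 was called in the mitoLbNOX against LbNOX response (0.44). Same-numbered libraries shared only a number (17 of 37, 2 of 8, 7 of 27, 1 of 15 and 7 of 18 libraries of the 5 models correlated best with their own number).

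With library totals only, the median log2 fold change of all genes moved by over 0.1, from 0.03 to -0.10 for antimycin and from -0.01 to -0.14 for oligomycin in LbNOX myoblasts, from 0.01 to -0.12 for antimycin against DMSO and from -0.0009 to -0.12 against piericidin in mitoLbNOX myoblasts, and from -0.01 to -0.12 between 24 h cells and myotubes. The share of calls that were higher then went from 50.4% to 32.9%, from 49.6% to 27.9%, from 51.9% to 35.7%, from 53% to 32.9% and from 53.3% to 35.8% in these comparisons. It also moved by over 10 points in LbNOX myoblasts for piericidin (56.4% to 24.2%) and piericidin against oligomycin (47.7% to 59.9%), and with chloramphenicol in luciferase myoblasts (57.1% to 35.2%). In untransduced myotubes it moved for antimycin (51.5% to 62.1%), antimycin against piericidin (75.6% to 95.5%), piericidin against oligomycin (48.5% to 38.4%), 5% oxygen (55.7% to 35.2%) and oligomycin in 5% oxygen against ambient oxygen (50.3% to 33.9%). In GFP myotubes it moved for piericidin (44.4% to 24.7%) and oligomycin (53.3% to 40.1%), and at 24 h for piericidin (48.3% to 29.2%) and oligomycin (48.9% to 36.5%). The oligomycin response of myotubes against 24 h cells went from 61.6% to 77.6%. Depth bears most on F3, which had as few as 52 counts in a library of GFP myotubes with DMSO.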
